A study of Mus musculus with 36 samples.

Results

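Corexit 9500 given together with oil (9500+oil) was compared with oil given alone, by RNA sequencing of the left lung of mice. The members were the 6 mice labelled 9500+oil, numbers 13 to 15 of each sex, and the 6 mice labelled oil, numbers 4 to 6 of each sex. They were 12 of the 36 mice sequenced, and they were chosen from their labels with no measured value involved. The 2 count tables, 1 for each sex, were joined on the gene symbol, and the table, which is also the sex, was a term of the model. All mice were wild-type C57BL/6, 8 weeks old at the first dose, with 3 females and 3 males in each group. Each received 50 µL on days 0, 7 and 13 and was killed on day 14. The solution was a fraction at 0.1 strength prepared in a buffered saline (HBSS). By the study's methods this saline-accommodated fraction was drawn in from the back of the throat (oropharyngeal aspiration), and by the labels it was a WAF instilled into the trachea. For the oil group, MC252 crude oil from the Macondo well was mixed as 1 part with 20 parts of saline, and only the saline phase that separated was given. For the 9500+oil group, 0.5 parts of the dispersant and 1 part of oil were mixed with 20 parts of saline. By the study's methods that mixture did not readily separate and was given directly, although a photograph of it after standing is described as showing a small amount of separation. A difference between the groups can therefore come from the dispersant or from oil that stayed in the mixture, and these cannot be told apart. The saline mice and the mice given Corexit 9500 alone, mixed as 1 part with 40 parts of saline, also 6 each, served as background. Female and male mice were deposited in separate tables, so that sex and anything else that differed between the tables cannot be told apart.

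Oil dispersants are mixtures of surfactants and solvents that break an oil slick into small droplets. Lung epithelium and resident macrophages answer inhaled irritants by secreting acute phase proteins such as serum amyloid A and lipocalin 2, complement proteins, and chemokines, which attract monocytes and neutrophils from the blood. Aromatic hydrocarbons of crude oil can bind the aryl hydrocarbon receptor, a transcription factor whose best known target is the cytochrome P450 gene Cyp1a1. In RNA from a whole lung lobe, fewer cells of a type and less RNA per cell cannot be told apart.

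Between 17533863 and 29688686 estimated reads per mouse were counted on genes in the 12 libraries. A level in CPM is the estimated count of a gene for each 1000000 counts of the mouse, with library sizes scaled by TMM, a normalization that assumes most genes to be alike. The lung markers were present in every library, with 8950 to 17700 CPM of Sftpc, the surfactant protein of alveolar type 2 cells. Markers of skeletal muscle (Acta1, at most 0.567 CPM), thymus (Rag1, at most 0.257 CPM) and liver (Alb, at most 1.7 CPM) were at or near 0, and the heart muscle gene Myh6 had 9.92 to 260 CPM. The Y-linked gene Kdm5d had 26.2 to 35.1 CPM in male and at most 0.221 CPM in female mice. A pair of libraries stood apart from the other 10. Mitochondrially encoded genes took 22.56% (95% Wilson interval 22.54% to 22.57%, counting error only) of the counts of female oil mouse 6 and 20.67% (20.65% to 20.69%) of those of female 9500+oil mouse 14, against 5.90% to 9.39% elsewhere. The same pair had few counts on GC-rich genes. Female oil mouse 6 also held 71.5 CPM of the fat cell gene Adipoq, whereas the other 11 mice had 0.937 to 7.64 CPM. Each group thus held 1 such library, and both were female. Nothing in the labels says more of how replicates were raised than that they were separate mice.

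**Figure D1:**
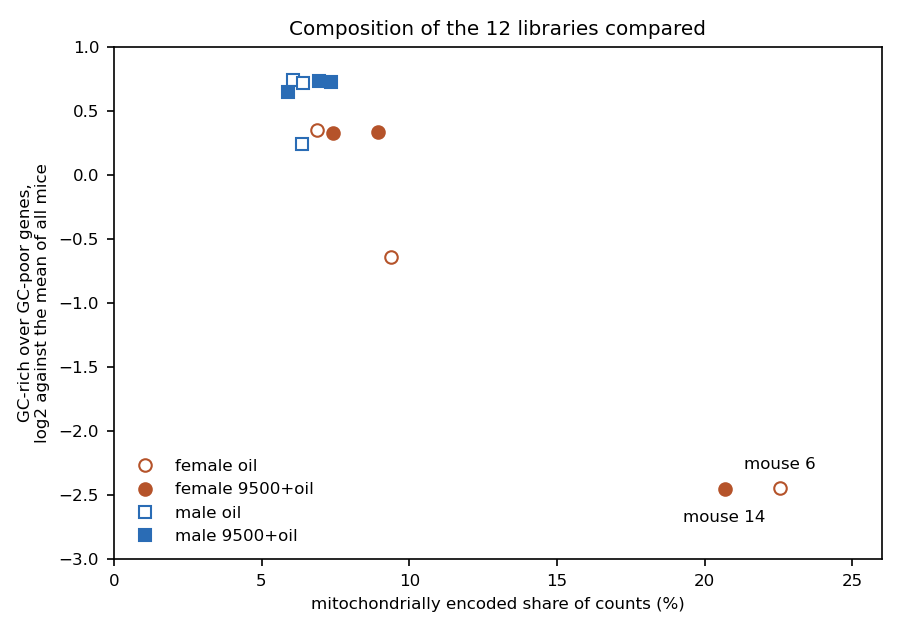
Share of counts on mitochondrially encoded genes (x axis, percent) against the log2 ratio of counts on GC-rich over GC-poor genes relative to the mean of all mice (y axis), 1 point per mouse, open symbols for oil and filled symbols for 9500+oil. Female oil mouse 6 (22.56%) and female 9500+oil mouse 14 (20.67%) lie at log2 ratios of -2.44 and -2.45, and the other 10 mice lie between -0.64 and 0.75.

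The comparison asks how lungs given the mixture differed from lungs given oil alone. Saa3, an acute phase gene, and C3, the central complement gene, lay lower with 9500+oil in every mouse of both sexes, and in male mice many chemokine, complement and other host defence genes lay lower too. No gene passed the adjusted threshold of the main test. Over both sexes 15146 genes went through edgeR's quasi-likelihood test with Benjamini-Hochberg adjustment, and 0 (0%) had an adjusted p under 0.05. The lowest adjusted p was 0.2995, for Saa3. Without adjustment, 96 genes (0.634%) with a p under 0.05 lay lower and 62 (0.409%) higher with 9500+oil. These 158 genes are fewer than the 0.05 level would let through if no gene differed. The same was true in female mice and of the interactions below. A lack of calls therefore does not show that the groups were alike. DESeq2 called 2 genes, Saa3 and C3, and limma's voom with sample quality weights called 2, Saa3 and Ly6i. All 3 were lower with 9500+oil. The median size of a log2 difference was 0.109 and its median standard error 0.229. In 16 genes (0.106%) every 9500+oil mouse lay below every oil mouse of its sex, and in 10 genes (0.066%) every one lay above. Saa3 and C3 were among the former.

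Saa3 encodes serum amyloid A3, an acute phase protein made in the lung by epithelium and macrophages. Its level was 4.49, 8.61 and 3.53 CPM in the female oil mice and 1.86, 0.638 and 1.03 CPM in the female 9500+oil mice. In male mice it was 35.6, 15.5 and 38.2 CPM with oil and 1.63, 2.00 and 3.83 CPM with 9500+oil. The groups did not overlap in either sex, and the 3 male oil mice also stood above the 3 male saline mice. Saline mice had 10.9, 53.4 and 4.51 CPM (female) and 4.86, 0.831 and 1.58 CPM (male), so that the female saline mice reached from the level of the female oil mice to well above it. The log2 fold change over both sexes was -2.92 ± 0.43 (SE, 95% interval -3.86 to -1.99), a fold of 0.132 (edgeR, adjusted p = 0.2995). It lay between -3.25 and -2.72 under 21 other settings, with adjusted p from 1.09e-08 (DESeq2) to 1, and it was past the threshold in 2 of them. Without the pair of libraries rich in mitochondrial counts it was -3.08.

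C3 encodes the central protein of the complement cascade. Female mice had 1009, 930 and 1044 CPM with oil and 737, 737 and 712 CPM with 9500+oil. Male mice had 2197, 1621 and 1997 CPM with oil and 1133, 1012 and 1239 CPM with 9500+oil. All 6 mice given 9500+oil lay below the oil mice of their sex, and the male 9500+oil mice overlapped the male saline mice, which had 1340, 1503 and 1227 CPM. Female saline mice were more scattered, with 894, 1478 and 519 CPM, the last in mouse 3, whose library held 45.1% mitochondrial counts. The log2 fold change was -0.61 ± 0.12 (SE, 95% interval -0.87 to -0.35), with adjusted p = 0.9997 in edgeR and from 0.000335 (DESeq2) to 1 over 22 other settings, 1 of which passed the threshold. Its value lay between -0.65 and -0.55 in them.

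The 250 bases before the start sites of Saa3 and C3, the 2 genes that DESeq2 called, are shown because both encode acute phase proteins and lay lower in the same mice. They are taken from RefSeq (GRCm38.p6), both on the minus strand and printed 5′ to 3′. Capitals mark a match to TTGCNNAA on either strand, part of the motif that C/EBP factors, regulators of acute phase genes, are known to bind.
Saa3, chr7:46715677-46715926: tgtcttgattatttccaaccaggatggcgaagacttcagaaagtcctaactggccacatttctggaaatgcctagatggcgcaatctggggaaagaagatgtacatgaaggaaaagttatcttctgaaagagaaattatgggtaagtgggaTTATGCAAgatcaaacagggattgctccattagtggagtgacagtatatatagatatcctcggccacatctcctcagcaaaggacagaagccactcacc
C3, chr17:57228137-57228386: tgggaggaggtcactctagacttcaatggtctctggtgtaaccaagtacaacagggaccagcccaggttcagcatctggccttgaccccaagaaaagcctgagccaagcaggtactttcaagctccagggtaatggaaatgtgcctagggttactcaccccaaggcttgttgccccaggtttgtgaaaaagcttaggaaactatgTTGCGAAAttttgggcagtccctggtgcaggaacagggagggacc
The match lay 99 to 92 bases before the start of Saa3 and 45 to 38 bases before that of C3. Of 32851 promoters of this length, 9.56% held the motif, and the data hold no measurement of binding to it. Neither promoter held the STAT motif TTCNNNGAA (7.02% of promoters) or the NF-kappaB consensus (7.25%). The gene models of GENCODE M21 place Saa3 on chromosome 7 from 46711998 to 46715700 and C3 on chromosome 17 from 57203970 to 57228136 (GRCm38), so the start of Saa3 in that annotation lies inside the first window.

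Of 21 tested members of a list of acute phase and host defence genes, 19 were lower with 9500+oil over both sexes, with a median log2 fold change of -0.29 against 0.01 over all genes. None passed the adjusted threshold, and 5 (23.8%, against 0.634% of all genes) had an unadjusted p under 0.05, all lower. They were Saa3, Orm1, Lcn2, Steap4 and Pigr. Lcn2, lipocalin 2, which withholds iron from bacteria, had 121, 171 and 146 CPM in female oil mice and 153, 129 and 116 CPM in female 9500+oil mice, which overlapped. In male mice it had 442, 295 and 504 CPM with oil and 158, 139 and 162 CPM with 9500+oil. The male oil mice stood apart, since male saline mice had 128, 140 and 116 CPM. Pigr, the receptor that carries IgA across the epithelium, had a log2 fold change of -0.60 ± 0.24 (SE), which was -0.36 without male oil mouse 4, with 213, 96.5 and 111 CPM in male oil mice against 61.6, 66.4 and 76.6 CPM in male 9500+oil mice. Steap4, a metalloreductase induced in inflammation, had -0.72 ± 0.24. Orm1, orosomucoid 1, had -1.88 ± 0.58, but 12.6 CPM in female oil mouse 6 stood far above the other 11 mice (0.255 to 1.90 CPM), and without that mouse the value was -1.0. Saa3 and Orm1 have close relatives, between which estimated counts can be split.

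The complement list behaved alike in direction, with 18 of 22 tested members lower and a median of -0.21, which was -0.14 without female oil mouse 5. Its members with an unadjusted p under 0.05 were C3 and C3ar1 (9.09%, against 0.634% of all genes). Over the alternatives 2 to 7 members were lower at that level, and 6 without the libraries rich in mitochondrial counts. C3ar1, the receptor of the C3a fragment on myeloid cells, had -0.72 ± 0.27 over both sexes. In male mice 11 of 22 (50%, against 3.04% of all genes lower in male mice) had an unadjusted p under 0.05, all lower and none past the adjusted threshold. They included the C1q chains C1qa, C1qb and C1qc, the classical pathway genes C1ra, C2 and C4b, the alternative pathway genes Cfb and Cfp, C3, C3ar1 and C7 of the membrane attack complex. Cfb, complement factor B, had 150, 94.6 and 161 CPM in male oil mice and 41.7, 49.0 and 46.9 CPM in male 9500+oil mice, beside 55.5, 48.2 and 33.3 CPM in male saline mice. In female mice Cfb had 34.3, 78.7 and 8.70 CPM with oil and 45.4, 10.3 and 42.8 CPM with 9500+oil. The lowest value of each female group came from the library rich in mitochondrial counts.

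Chemokines of the CXC and CC families made up the list with the highest share of members at an unadjusted p under 0.05 over both sexes, 10 of 27 (37%, against 0.634% of all genes), all lower. In all, 20 of 27 were lower, with a median of -0.33. The median moved to -0.55 without both libraries rich in mitochondrial counts and to -0.15 over the genes with at least 10 counts in every mouse. With 1 mouse left out it ran from -0.53, without female 9500+oil mouse 14, to -0.19, without male oil mouse 4. The 10 were the monocyte attractants Ccl2, Ccl7 and Ccl8, the eosinophil attractant Ccl11, the neutrophil attractants Cxcl1, Cxcl3 and Cxcl5, the interferon-induced T cell attractants Cxcl9 and Cxcl10, and Ccl9. Ccl7 had 0.524, 1.10 and 1.01 CPM in female oil mice against 0.318, 0.142 and 0.723 CPM with 9500+oil, and 1.54, 0.824 and 0.616 CPM in male oil mice against 0.308, 0.450 and 0.213 CPM. The male groups did not overlap, and the level was low throughout. Its log2 fold change was -1.35 ± 0.42 (SE, 95% interval -2.27 to -0.44), with adjusted p = 0.9997 in edgeR and at least 0.594 in every alternative. Ccl2 had -0.95 ± 0.31 and Cxcl10 -0.86 ± 0.28. Cxcl9 had 5.25, 3.24 and 3.86 CPM in male oil mice and 0.791, 0.899 and 1.19 CPM in male 9500+oil mice, where male saline mice had at most 0.880 CPM. Among female mice Cxcl9 had 2.71, 9.10 and 8.57 CPM with oil and 1.68, 8.71 and 1.91 CPM with 9500+oil, where the 8.71 CPM came from mouse 14. Cxcl2, another neutrophil attractant, was under the filter on low counts, with at most 0.454 CPM in any of the 12 mice.

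**Figure D2:**
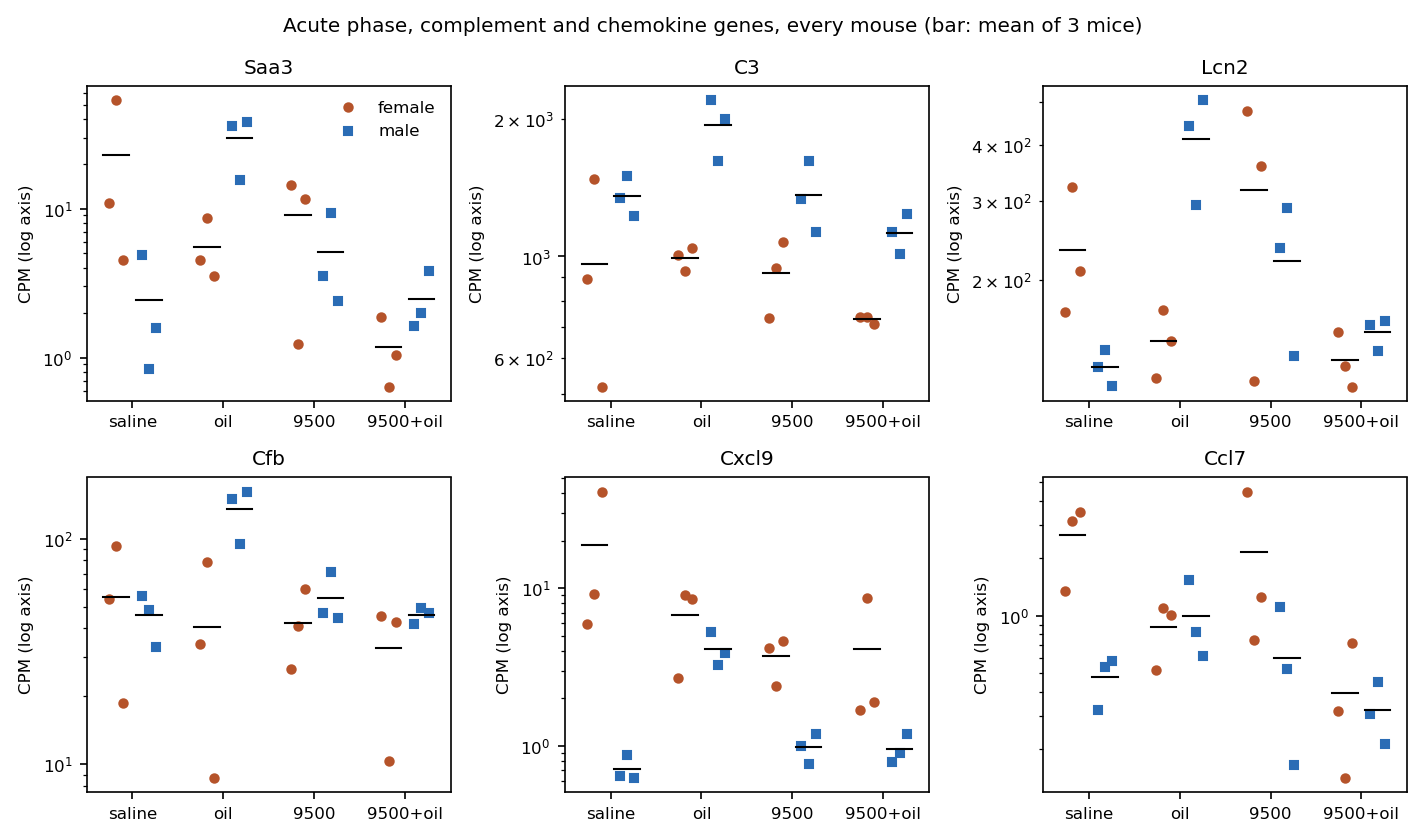
Levels of Saa3, C3, Lcn2, Cfb, Cxcl9 and Ccl7 in CPM (log axis) in every mouse given saline, oil, Corexit 9500 or 9500+oil, circles for female and squares for male mice, with a bar at the mean of 3 mice. In male mice all 6 genes have their 3 oil values above their 3 values with 9500+oil, for instance 295 to 504 CPM against 139 to 162 CPM for Lcn2. In female mice the groups are apart for Saa3 and C3 and overlap for the other 4.

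The comparison was also made in each sex. In female mice 0 of 14850 genes passed the adjusted threshold in edgeR, and 18 genes (0.121%) were lower and 7 (0.0471%) higher at an unadjusted p under 0.05. DESeq2 called 2 there, Ighg3 and the predicted gene Gm4294, and 1 gene each was called without the libraries rich in mitochondrial counts (2900026A02Rik) and by voom (Gm4294). Both of the unfamiliar names were given after their values were seen. In male mice the count was also 0 of 14889, with a lowest adjusted p of 0.1311, but 452 genes (3.04%) were lower and 296 (1.99%) higher at an unadjusted p under 0.05, and DESeq2 called 28. The median standard error was 0.421 in female and 0.145 in male mice, so a difference of the same size was measured with less precision in female mice. Of the 28, 25 were lower and 3 higher (Dhrs7, 2210011C24Rik and Trappc6b, named after their values were seen). The lower ones included Saa3, Cfb, Lcn2, Ly6i, Tbxas1, C3, Cxcl9, Itih4, C3ar1, Timp1, Ccl9 and C1qb. The test by voom with quality weights called 0. In edgeR, leaving out male oil mouse 5 gave 3 calls (Cfb, Lcn2 and Saa3), and leaving out male oil mouse 4 gave 1, the gene Fam169b, named here after its value was seen.

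The difference of the 2 sexes' effects was tested as an interaction over 15327 genes, of which 0 passed the adjusted threshold in edgeR (lowest adjusted p 1), 58 and 56 had an unadjusted p under 0.05 in either direction, and DESeq2 called 3 predicted genes. An effect seen in male mice was therefore not shown to differ from that in female mice. For Lcn2 the log2 fold change was -1.44 ± 0.18 in male and -0.14 ± 0.25 in female mice (SE), and the difference was -1.29 ± 0.31 with an adjusted p of 1. Ly6i, a surface protein of the Ly6 family with close relatives, had -1.96 ± 0.24 and -0.31 ± 0.49. Its level in male mice was 8.57, 8.24 and 5.83 CPM with oil and 2.24, 1.60 and 1.96 CPM with 9500+oil. Tbxas1, thromboxane synthase of macrophages and platelets, had -1.02 ± 0.14 in male and 0.02 ± 0.41 in female mice. For Saa3 both sexes lay on the same side, with -2.22 ± 0.58 in female and -3.58 ± 0.42 in male mice.

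**Figure D3:**
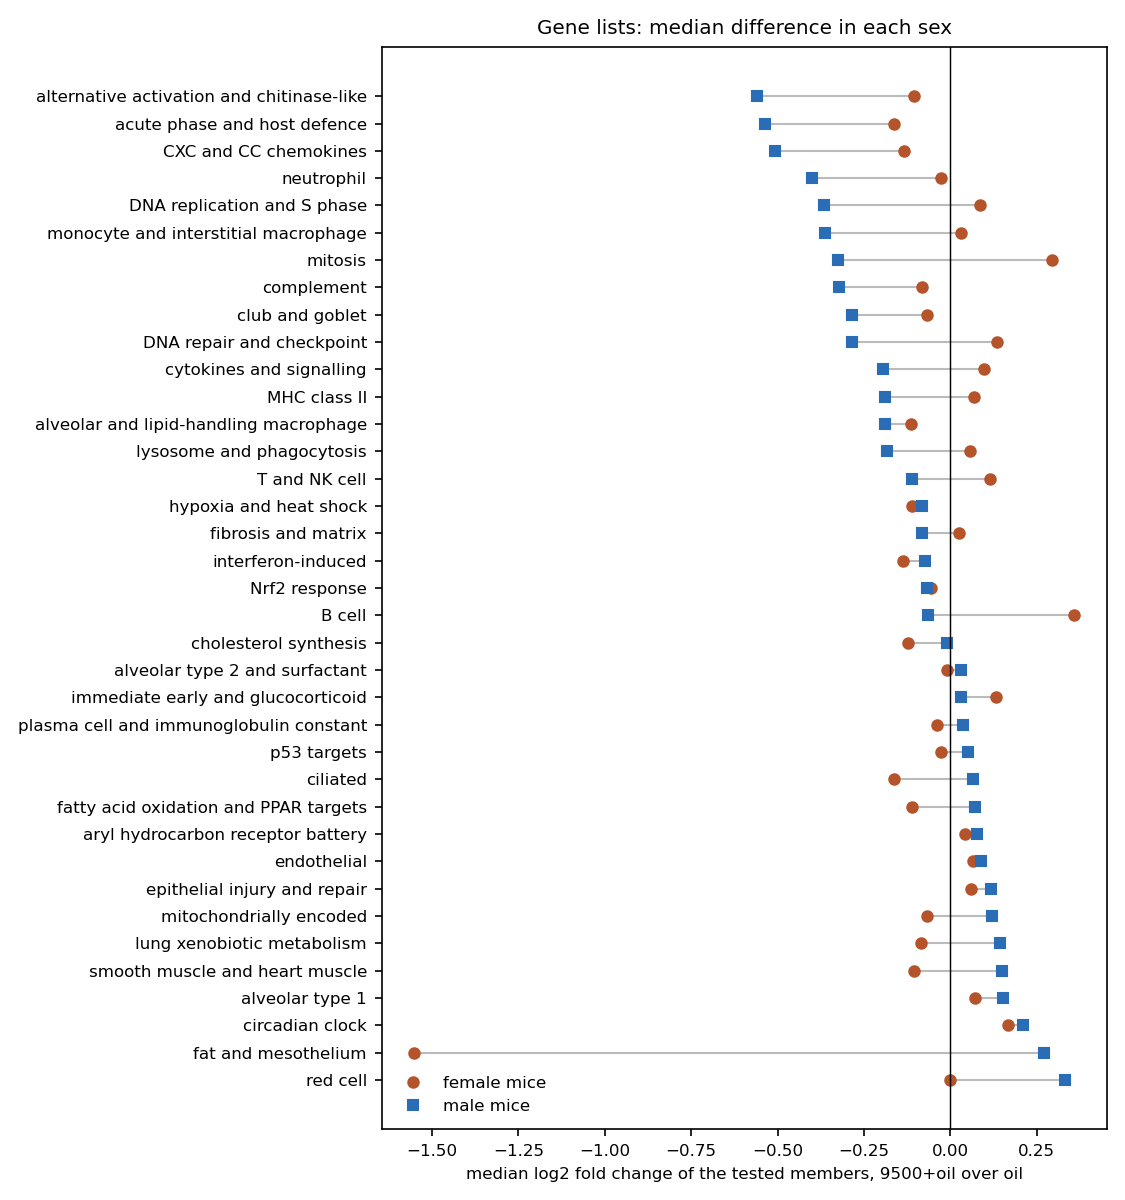
Median log2 fold change, 9500+oil over oil, of the tested members of each of 37 gene lists, circles for female and squares for male mice, ordered by the male value. The lowest male medians belong to alternative activation (-0.56), acute phase (-0.54) and chemokine (-0.51) genes, while the lowest female median is that of the fat and mesothelium list (-1.55), which was -0.33 without female oil mouse 6.

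In male mice the acute phase list had 17 of 21 members lower, a median of -0.54 and 10 lower (47.6%, against 3.04% of all genes) at an unadjusted p under 0.05, beside 1 higher, Bpifa1, a secreted airway defence protein. Itih4 (-0.70 ± 0.12), Chil1 (-0.71 ± 0.14), Cp, Serpina3n and Lrg1 joined the 5 genes named above. The chemokine list had 7 of 24 (29.2%) lower at that level and 1 higher (Cxcl14, 4.17%, against 1.99% of all genes higher). Its median was -0.51, which ran from -0.72 without male oil mouse 6 to -0.29 without male oil mouse 4. Among female mice the acute phase median was -0.16 with 2 of 21 lower at that level (Saa3 and Orm1, 9.52%, against 0.121% of all genes), and the chemokine median was -0.13 with 0 of 23. With 1 mouse left out these female medians ran from -0.41 (without 9500+oil mouse 13) to -0.001 (without oil mouse 5) and from -0.44 (without 9500+oil mouse 14) to -0.01 (without oil mouse 5).

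Most listed genes of myeloid cells lay lower in male mice. Markers of monocytes and interstitial macrophages had 15 of 19 members lower, 8 of them (42.1%, against 3.04% of all genes) at an unadjusted p under 0.05, with a median of -0.36 against 0.03 in female mice. Their summed level did not follow, with 2512, 2655 and 3421 CPM in male oil mice and 2913, 2832 and 2751 CPM in male 9500+oil mice. These sums overlapped. With 1 mouse left out the male median ran from -0.49 to -0.22 (without male oil mouse 6), and the female median from -0.09 (without 9500+oil mouse 13) to 0.23 (without oil mouse 4), on either side of 0. Ms4a7, a membrane protein of interstitial macrophages, had the smallest p of the list over both sexes, with -0.65 ± 0.18. Its level was 4.76, 4.64 and 5.86 CPM in female oil mice against 3.40, 4.46 and 3.98 CPM with 9500+oil, and 4.68, 6.23 and 6.45 CPM in male oil mice against 2.86, 2.65 and 3.49 CPM. The groups did not overlap in either sex. Cx3cr1, a chemokine receptor of resident monocytes, had -0.61 ± 0.13 in male mice, and Cd68, Itgam, Adgre1 and Ccr2, which marks inflammatory monocytes, were also among the 8. Lysosome and phagocytosis genes were lower in 35 of 40 cases in male mice, 14 (35%) at an unadjusted p under 0.05, and higher in 26 of 40 in female mice, where the median of 0.06 was -0.02 without 9500+oil mouse 13. The 14 held the cathepsins Ctsk, Ctss, Ctsc and Ctsz and the phagocyte oxidase genes Cyba, Cybb, Ncf1 and Ncf4. Of the alveolar and lipid-handling macrophage list, 23 of 29 were lower in male mice, 10 (34.5%) at that level. Marco, a scavenger receptor of alveolar macrophages, had 57.8, 35.0 and 105 CPM in male oil mice and 13.3, 23.0 and 43.5 CPM in male 9500+oil mice, which overlapped. Plin2, the coat protein of lipid droplets, had -0.17 ± 0.11 over both sexes, with 75.5 to 133 CPM with oil and 66.3 to 115 CPM with 9500+oil.

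Genes of alternative macrophage activation and chitinase-like proteins were lower in 13 of 13 cases in male mice, 6 (46.2%, against 3.04% of all genes) at an unadjusted p under 0.05, with a median of -0.56 that was -0.28 without male oil mouse 4, and in 8 of 13 in female mice. Retnla, a secreted protein induced by interleukin 4, had 624, 102 and 67.9 CPM in male oil mice and 35.7, 36.2 and 48.3 CPM in male 9500+oil mice. The 624 CPM of male oil mouse 4 weighed on its log2 fold change, which was -2.74 ± 0.76 in male mice and between -3.19 and -1.08 with 1 mouse left out. Chil3, a chitinase-like protein of alveolar macrophages, had 504, 516 and 456 CPM in male oil mice against 356, 238 and 378 CPM with 9500+oil, with no overlap. Of 11 genes of MHC class II molecules, which present antigen, 4 (36.4%) had an unadjusted p under 0.05 in male mice. H2-Aa, H2-Ab1, H2-Eb1 and the chaperone gene Cd74 lay 0.37 to 0.46 lower on the log2 scale. The male median of the list was -0.19, and it ran from -0.36 without male oil mouse 6 to -0.06 without male oil mouse 4. In female mice 8 of 11 were higher, with a median of 0.07 and 0 at that level, and without female oil mouse 6 the median was -0.07. The cytokine list had 6 of 28 (21.4%) lower in male mice, among them Il33, Il1a, Il1rn and Csf1, and 19 of 27 higher in female mice, with none at that level.

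Neutrophil genes were less uniform. In male mice 16 of 16 were lower, with a median of -0.40, and Cd177 and Ngp (12.5%, against 3.04% of all genes) had an unadjusted p under 0.05. Over the alternatives 1 to 10 members were lower at that level. The summed level of the list was 520, 628 and 1258 CPM in male oil mice and 1033, 428 and 410 CPM in male 9500+oil mice. The groups overlapped, and without male oil mouse 6 the median was 0.12, that is, on the other side of 0, and without male 9500+oil mouse 13 it was -1.15. S100a8 and S100a9, which encode calprotectin, had log2 fold changes of 0.01 ± 0.53 and -0.07 ± 0.41 over both sexes. Interferon-induced genes were lower in 30 of 36 cases over both sexes, with a median of -0.12 and 2 members (Cxcl10 and Mx1, 5.56%, against 0.634% of all genes) at an unadjusted p under 0.05. That median was -0.06 without female 9500+oil mouse 15.

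The aryl hydrocarbon receptor list held 12 tested members, 0 of them at an unadjusted p under 0.05, with a median of 0.06, which was 0.03 without male 9500+oil mouse 13 and 0.12 without male oil mouse 4. Cyp1a1 had 3.97, 6.45 and 5.11 CPM in female oil mice and 7.98, 6.16 and 7.02 CPM in female 9500+oil mice. In male mice it had 15.0, 14.1 and 21.1 CPM with oil and 24, 14.2 and 19.9 CPM with 9500+oil, while male saline mice had 26.4, 25.3 and 19.4 CPM. The groups overlapped in both sexes, and the log2 fold change was 0.33 ± 0.18 with a 95% interval of -0.07 to 0.73. Cyp1b1 had 0.03 ± 0.26, the receptor's repressors Ahrr and Tiparp had 0.81 ± 0.65 and -0.23 ± 0.25, and the quinone reductase gene Nqo1 had 0.10 ± 0.30. The list of other xenobiotic enzymes of the lung had 25 of 31 members higher in male mice, 6 (19.4%, against 1.99% of all genes) at an unadjusted p under 0.05, namely Cyp2f2, Ces1f, Ephx1, Cbr2, Cyp2e1 and Fmo1. In female mice 22 of 30 were lower and over both sexes 18 of 31 were higher, with 0 members at that level in either case. Cyp2f2, the main cytochrome P450 of club cells, had 2245, 2369 and 2220 CPM in male oil mice and 2840, 2775 and 3135 CPM in male 9500+oil mice, a log2 fold change of 0.35 ± 0.09. Male saline mice had 2858, 3093 and 2972 CPM, and the female groups overlapped (-0.05 ± 0.26). Scgb1a1, the secretory protein of club cells, had 0.12 ± 0.09 in male mice, and 0.05 without male oil mouse 6.

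Genes of DNA replication and mitosis, which mark dividing cells, had lower medians in male and higher medians in female mice. In male mice 36 of 36 replication genes were lower, 10 (27.8%, against 3.04% of all genes) at an unadjusted p under 0.05, with a median of -0.37, and 38 of 40 mitosis genes, 4 (10%) at that level, with -0.32, which was -0.13 without male oil mouse 6. In female mice the medians were 0.09 and 0.29, with 0 genes of either list at that level. Summed over the 36 replication genes, male mice had 525, 416 and 527 CPM with oil and 406, 411 and 375 CPM with 9500+oil, against 393, 331 and 360 CPM with saline. Female mice had 419, 460 and 479 CPM with oil and 431, 547 and 403 CPM with 9500+oil. The male groups were apart and the female groups overlapped. The 547 CPM belonged to mouse 14, and without it the female medians were -0.08 for replication and -0.14 for mitosis. The replication licensing genes Mcm6 and Mcm10 had -0.33 ± 0.10 and -0.80 ± 0.25 in male mice.

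**Figure D4:**
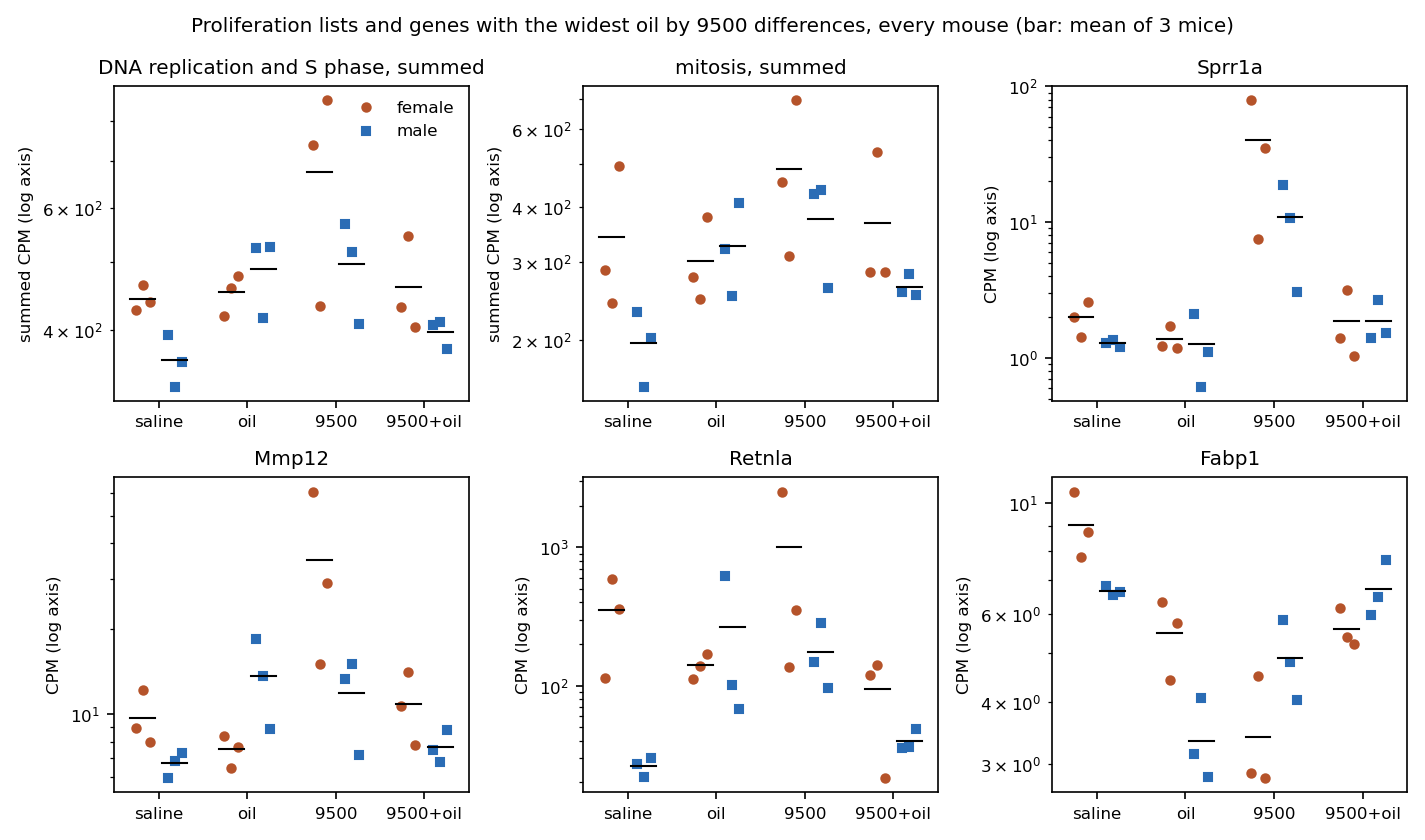
Summed CPM of the replication and mitosis lists and CPM of Sprr1a, Mmp12, Retnla and Fabp1 (log axes) in every mouse given saline, oil, Corexit 9500 or 9500+oil, circles for female and squares for male mice, with a bar at the mean of 3 mice. Sprr1a stands at 3.09 to 78.9 CPM with Corexit 9500 alone and at 0.618 to 3.19 CPM in the other 3 groups.

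The step from oil to 9500+oil was also set beside the step from saline to Corexit 9500, 2 differences that share no mice. Their difference, called the interaction here and fitted over 24 mice, is 0 for a gene whose steps are equal. The 9500+oil mice received the whole mixture and the oil mice just the saline phase, so the interaction does not isolate the dispersant. edgeR tested it for 15425 genes and called 0 (lowest adjusted p 0.9999). Without adjustment, 176 genes (1.14%) with a p under 0.05 were lower, that is, the step from oil to 9500+oil lay below the step from saline to Corexit 9500, and 81 (0.525%) higher. DESeq2 called 3 genes, Sprr1a, Fabp1 and a predicted gene. Across 15009 genes the log2 fold changes of the 2 steps had a Pearson r of 0.182 and a Spearman rho of 0.239, a description over genes, which are not independent replicates. One of the saline libraries, female mouse 3, was also rich in mitochondrial counts.

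The replication list had 35 of 36 members lower in the interaction, 19 (52.8%, against 1.14% of all genes) at an unadjusted p under 0.05, with a median of -0.73 that stayed between -0.87 and -0.65 with 1 mouse left out. For the mitosis list the numbers were 38 of 40, 14 (35%) and -0.82, with -0.95 to -0.64. Over all alternatives the counts at that level ran from 11 to 29 for replication and from 12 to 34 for mitosis. Without the libraries rich in mitochondrial counts the medians were -0.83 and -1.09. Corexit 9500 alone stood against saline with medians of 0.63 and 0.83, with 15 of 36 and 23 of 40 genes higher at an unadjusted p under 0.05 (1.29% of all genes were higher and 0.973% lower). For 9500+oil against oil the medians were -0.15 and -0.03. With 1 mouse left out they lay between -0.24 and -0.08 and between -0.22 and 0.07, in both cases lowest without female 9500+oil mouse 14 and highest without male oil mouse 6. The summed replication genes had 739, 433 and 857 CPM in female and 569, 518 and 408 CPM in male mice given Corexit 9500 alone. Of these 6 mice, 2 females and 1 male exceeded every one of the 6 mice given 9500+oil, of which the highest had 547 CPM. Mcm10 had an interaction of -1.59 ± 0.40 (SE), with adjusted p = 0.9999 in edgeR and at least 0.191 in the alternatives. Top2a, the topoisomerase of dividing cells, had -1.19 ± 0.38.

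Several single genes stood highest with Corexit 9500 alone. Sprr1a, a cornified envelope protein that squamous and injured epithelium makes, had 78.9, 7.52 and 35.2 CPM in female and 18.9, 10.8 and 3.09 CPM in male mice given Corexit 9500 alone. With 9500+oil it had 1.41, 3.19 and 1.03 CPM and 1.41, 2.70 and 1.53 CPM, and with oil 1.22, 1.72 and 1.20 CPM and 2.11, 0.618 and 1.10 CPM. The 9500+oil mice thus overlapped the oil mice, with a log2 fold change of 0.50 ± 0.36, which was 0.25 without female 9500+oil mouse 14, and the interaction was -3.33 ± 0.73. Its adjusted p was 0.9999 in edgeR and from 0.0176 (DESeq2) to 1 over the alternatives. Psca, a surface antigen of epithelium, and Tnc, the matrix protein tenascin C, had interactions of -3.57 ± 1.00 and -1.31 ± 0.36. Tnc had 37.3 to 122 CPM with Corexit 9500 alone, 18.2 to 38.8 CPM with 9500+oil and 21.5 to 37.3 CPM with oil. Over the epithelial injury and repair list, 16 of 19 members were lower in the interaction, with a median of -0.55. At an unadjusted p under 0.05 there were 3 (15.8%, against 1.14% of all genes), namely Sprr1a, Psca and Clu. That count ran from 2 to 7 over the alternatives.

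Mmp12, the elastase of macrophages, had 60.7, 15.0 and 29.0 CPM in female mice given Corexit 9500 alone, and 10.7, 14.1 and 7.80 CPM in those given 9500+oil. Female oil mice had 8.42, 6.49 and 7.69 CPM. In male mice it had 18.4, 13.7 and 8.85 CPM with oil and 7.52, 6.79 and 8.80 CPM with 9500+oil. The interaction was -1.71 ± 0.52, and the step from oil to 9500+oil was 0.53 ± 0.33 in female and -0.83 ± 0.26 in male mice, where it was -0.54 without male oil mouse 4. Retnla had an interaction of -3.98 ± 1.16, which was -2.62 without female Corexit 9500 mouse 7, and Timp1, an inhibitor of matrix proteases, -1.78 ± 0.65. Timp1 had 26.3, 16.1 and 22.3 CPM in male oil mice against 10.2, 8.69 and 12.2 CPM in male 9500+oil mice. Fabp1, a fatty acid binding protein and target of PPAR factors, had an interaction of the other sign. In male mice it had 3.14, 4.07 and 2.82 CPM with oil, 5.98, 6.49 and 7.70 CPM with 9500+oil and 6.83, 6.55 and 6.63 CPM with saline. The interaction, fitted over both sexes, was 1.41 ± 0.32 (edgeR, adjusted p = 0.9999, and from 0.0176 with DESeq2 to 1 over the alternatives). Fabp1 was also lower with Corexit 9500 alone than with saline over both sexes at an unadjusted p under 0.05. Among female mice no tested member of its list differed at that level between oil and 9500+oil. The step from oil to 9500+oil was higher in male than in female mice for Fabp1 at that level, though not after adjustment.

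**Figure D5:**
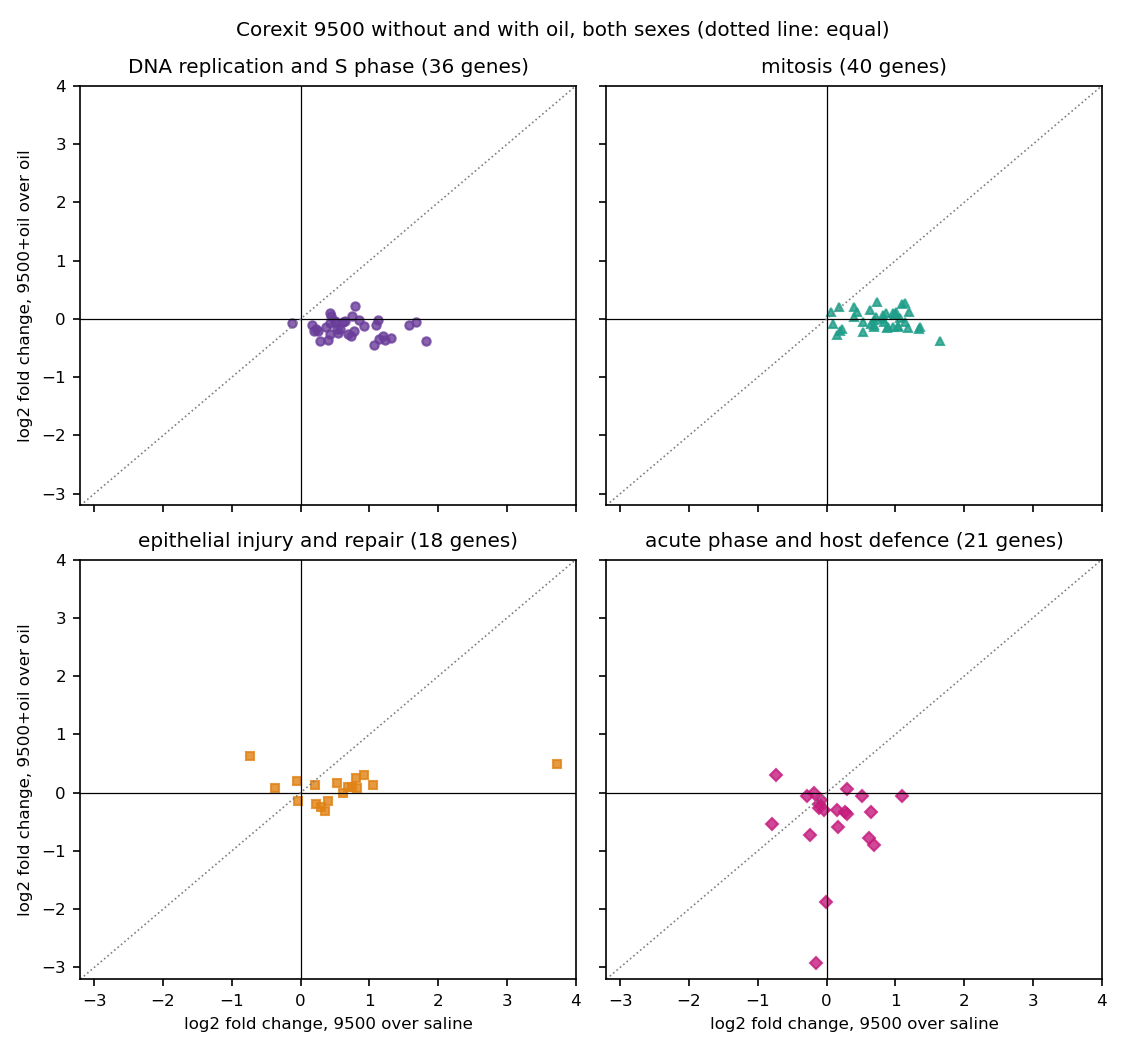
Log2 fold change of Corexit 9500 over saline (x axis) against that of 9500+oil over oil (y axis), both sexes, 1 point per tested gene of 4 lists, with a dotted line where both would be equal. Replication and mitosis genes lie right of 0 on the x axis (medians 0.63 and 0.83) and near 0 on the y axis (-0.15 and -0.03), while acute phase genes lie near 0 on the x axis (-0.01) and below it on the y axis (-0.29).

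Of the 10 genes higher with 9500+oil in every mouse of both sexes, the 8 with the smallest p and a mean of at least 1 log2 CPM differed by little. Lrtm2, a membrane protein with leucine-rich repeats, had 13.3, 15.5 and 15.2 CPM in female oil mice against 18.7, 20.4 and 21.0 CPM, and 13.8, 10.1 and 10.3 CPM in male oil mice against 15.1, 15.0 and 14.6 CPM, a log2 fold change of 0.42 ± 0.12. Col12a1, a collagen that links fibrils, had 0.32 ± 0.10, with 53, 55.0 and 56.5 CPM in male oil mice and 69.2, 73.5 and 67.1 CPM in male 9500+oil mice. Efnb2, the arterial ephrin ligand, had 0.26 ± 0.09, and Sh3rf2, Pcdhb12, Ctnnd1, Magee1 and 9130011E15Rik had 0.16 to 0.46. Every adjusted p among these was 0.9997 in edgeR. On the lower side, beside Saa3, C3 and Ms4a7, the genes chosen in the same way were Fut4 (-0.50 ± 0.16), a fucosyltransferase that makes the Lewis X sugar, Pop1 (-0.41 ± 0.15), Ndufb5 (-0.33 ± 0.13), a subunit of complex I, 2610020H08Rik and Mtmr7.

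Clock genes are known to vary with the hour, and the hour of death is not given in the sources used here. Nr1d1, the repressor of the clock, had 0.53 ± 0.21 over both sexes, the sole member of its list of 20 at an unadjusted p under 0.05 (5%, against 0.409% of all genes higher). In male mice 3 of 20 (15%, against 1.99% of all genes) were higher at that level, Nr1d1, Dbp and Bhlhe41, and Clock was lower. Dbp, a clock output, had 14.6, 23.5 and 36.8 CPM in male oil mice and 30.9, 101 and 60.2 CPM in male 9500+oil mice, which overlapped. Arntl, which peaks opposite to Dbp, had -0.21 ± 0.36.

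Genes of fat cells and 1 immunoglobulin gene lay lower in female 9500+oil mice. The fat and mesothelium list had a female median of -1.55, with Lep, Adipoq, Retn and Fabp4 (4 of 9, 44.4%, against 0.121% of all genes) lower at an unadjusted p under 0.05. Without female oil mouse 6 the median was -0.33, and without both libraries rich in mitochondrial counts it was -0.37 with 0 members at that level. The summed level of the list was 782 CPM in female oil mouse 6, 298 and 365 CPM in the other female oil mice and 191 to 336 CPM in the female 9500+oil mice. The male median was 0.27, and 0.62 without male oil mouse 5. Ighg3, an immunoglobulin heavy chain, had 4.54, 1.90 and 8.57 CPM in female oil mice and 0.272, 0.709 and 0.206 CPM in female 9500+oil mice, with no overlap and a log2 fold change of -3.67 ± 0.78 in female mice. In male mice it was at most 0.940 CPM in both groups. Among female mice its list of immunoglobulin and plasma cell genes had no other member at that level, and the female median (-0.04) was 0.08 without oil mouse 6. In male mice Ighg2b was higher at that level (6.25%, against 1.99% of all genes). Lists of epithelial and endothelial cells were counted in the same way. Over both sexes the alveolar type 2 list had 1 member of 20 lower at an unadjusted p under 0.05 (5%, against 0.634% of all genes). It was Scd1, with -0.37 ± 0.17, and -0.25 without female oil mouse 6. The alveolar type 1, club and goblet, ciliated and endothelial lists had 0, where 0.634% of all genes were lower and 0.409% higher. In male mice 12 of 12 alveolar type 1 genes were higher, 2 (16.7%, against 1.99% of all genes) at that level, with a median of 0.15. The p53 target list had 0 of 24 over both sexes, and its median (0.04) was -0.05 without female 9500+oil mouse 14.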

How the data were processed

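Stranded mRNA libraries were made from the left lungs of 36 mice. The authors quantified transcripts with Salmon on GRCm38 and imported them with tximport. The deposited tables, 1 for each sex, hold expected counts (estimated counts, already whole numbers) for each gene symbol, and how transcripts were brought to genes is not given in the sources used here. Tool versions are not given in the sources used here. Of 18120 and 18295 rows, 17716 gene symbols were in both tables, and 4 rows of each table that shared a name (0.0103% and 0.0128% of counts) were left out. No column held other samples (0 not used).

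Genes were filtered with filterByExpr, scaled by TMM and tested with edgeR 4.0.16 (quasi-likelihood test, R 4.3.3), with sex as a term where both sexes entered. Standard errors are the log2 fold change divided by the square root of F. P-values were adjusted by Benjamini-Hochberg over all genes tested, with a threshold of 0.05. All tests were two-sided. DESeq2 1.42.0, limma 3.58.1, other scalings and filters, GC offsets (GC content known for 95.43% of genes), 1 fit of all 36 mice, and fits without single mice were alternatives. Scripts were tested on simulated counts that had the same spread for every gene and no outlying library. That test does not show how the methods behave in these data.

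Groups came from the labels. The comparison, the 37 gene lists (839 symbols, 832 found, 4 of them under older names) and the tests were chosen with earlier results of these data known. Named genes were the 8 in each direction with the smallest p among those with no overlap in either sex and a mean of at least 1 log2 CPM, the member of each list with the smallest p, and preset markers. Cfb, Ly6i, Tbxas1, Cxcl9, C3ar1, Orm1, Steap4, Pigr, Itih4, Chil1, Chil3, Cx3cr1, H2-Aa, H2-Ab1, Cd74, Mcm10, Top2a, Tnc and Psca were chosen after their values were seen, as were members that are given only as having an unadjusted p under 0.05. Replicate libraries differed by more than sampling noise (chi-square per gene at least 11.3 in female and 16.7 in male pairs), so none was taken as deposited more than once. The p-values measure the spread between mice of a group. Counting intervals do not cover that spread. Promoters came from RefSeq (GRCm38.p6), where Saa3 and C3 had an entry.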

Additional observations from a re-analysis of the deposited data

Results flagged for a closer look

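Of 72 values screened in groups of 6 mice, 13 had their highest or lowest mouse farther from the nearest other mouse than Dixon's 95% critical ratio allows. Chance flags about 1 in 20 such groups. Most of them belonged to female 9500+oil mouse 14. Its mitochondrially encoded share was 20.67%, where the next mouse had 8.93%, and GC-rich genes stood against GC-poor genes at a log2 ratio of -2.453, where the next had 0.33. Cfb was low there at 10.34 CPM (next 41.7 CPM), as was Tbxas1 at 6.022 CPM (next 11.4 CPM). Cxcl9 stood high at 8.715 CPM (next 1.91 CPM) and Mcm6 at 38.12 CPM (next 31.2 CPM). The summed DNA replication genes had 546.9 CPM (next 430.7 CPM) and the summed mitosis genes 531.5 CPM (next 285.7 CPM).

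Female oil mouse 6 had 4 such values. Its mitochondrially encoded share was 22.56% (next 9.39%), Orm1 had 12.61 CPM (next 1.90 CPM), the summed fat and mesothelium genes had 781.9 CPM (next 364.6 CPM), and the summed red cell genes were low at 1193 CPM (next 5687 CPM). The last value was that of female oil mouse 5, whose summed smooth muscle and heart muscle genes had 1617 CPM (next 1138 CPM).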

How the results depend on the processing

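Over both sexes 20 of 22 alternatives also called 0 genes, and the other two, DESeq2 and limma's voom with quality weights, called 2 each. Leaving out 1 mouse gave 0 to 0. In female mice DESeq2 called 2, and voom and the fit without libraries rich in mitochondrial counts called 1 each. In male mice DESeq2 called 28, and leaving out 1 mouse gave 0 to 3. DESeq2 called 3 genes for the difference between sexes and 3 for the interaction with oil. The cause was not tested. The chemokine median over both sexes (-0.331) was -0.547 without the libraries rich in mitochondrial counts, -0.147 over genes with at least 10 counts in every mouse and from -0.533 to -0.185 with 1 mouse left out, and in male mice (-0.508) it was from -0.72 to -0.288. Over all alternatives the members lower at an unadjusted p under 0.05 numbered 4 to 11 for chemokines, 3 to 9 for acute phase and 0 to 8 for interferon-induced genes over both sexes. In male mice they numbered 7 to 13 for acute phase, 4 to 12 for complement, 4 to 11 for monocyte, 2 to 8 for alternative activation, 3 to 16 for lysosome, 3 to 11 for chemokine, 3 to 12 for alveolar macrophage, 0 to 8 for cytokine, 0 to 5 for MHC class II, 0 to 22 for replication and 0 to 13 for mitosis genes, and xenobiotic genes that were higher numbered 0 to 11. Of 1831 refits of 84 named genes over both sexes, 30 reversed the direction, in 9 genes. In male mice 25 of 1126 refits did so, in 11 genes, and for the interaction 67 of 2446, in 21 genes. Over both sexes S100a8 (0.005) was -0.006 without a filter, -0.404 without the mitochondria-rich libraries, -0.544 by voom, -0.046 with GC offsets and -0.152 without a term for sex, and Sftpc was 0.073 by voom. With 1 mouse left out, log2 fold changes ran from -0.071 to 0.324 for Cyp1b1, -0.394 to 0.032 for Tiparp, -0.07 to 0.234 for Nqo1, -0.565 to 0.289 for S100a8, -0.566 to 0.141 for S100a9, -0.309 to 0.047 for Mmp12, -0.164 to 0.104 for Sftpc, -0.366 to 0.069 for Arntl and -0.378 to 0.018 for Top2a. No paired analysis was possible because the groups compared share no mouse numbers (4 to 6 with oil, 13 to 15 with 9500+oil).

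Depth and group size set limits. With 3 mice of a sex in each group the median standard error of a log2 fold change was 0.421 in female and 0.145 in male mice, and genes near 1 CPM, such as Ccl7, rest on few counts.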
